A study of Mus musculus with 7 samples.

Results

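The genes described here are 9 regulators of T cell quiescence and lymph node homing, Ccr7, S1pr1, Klf2, Klf3, Foxp1, Foxo1, Satb1, Btg1 and Tob1, taken by symbol from a deposited expression table of 55357 genes. All 9 symbols matched 1 row each, and all 9 passed the filter for testing. Expression was measured by poly(A)-selected RNA-seq in live CD8 T cells (CD45+ CD8+ by flow sorting) from subcutaneous MCA205 tumours, a transplantable mouse fibrosarcoma line, harvested at day 14. The hosts were C57Bl/6 wild-type mice (WT, 3 libraries, replicates 1, 2 and 3) or mice lacking Slc29a1 (ENT1KO, Slc29a1-/-, 4 libraries, replicates 11, 12, 14 and 15). Slc29a1 encodes ENT1, a membrane transporter of nucleosides such as adenosine. The genotype is that of the host, and the same tumour line was implanted in both. The sources used here do not give the age or sex of the mice or say whether each library is a separate animal. P-values therefore measure the spread between these libraries.

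Naive and central memory T cells recirculate between blood and lymph nodes and divide little. CCR7 is the chemokine receptor that brings them into lymph nodes along CCL19 and CCL21, and S1PR1 is the sphingosine 1-phosphate receptor through which they leave again. The transcription factor FOXO1 sustains this programme and activates Klf2, and KLF2 in turn activates S1pr1. On T cell receptor stimulation FOXO1 is driven out of the nucleus by AKT, and Klf2 and its targets are switched off.

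The libraries held 18624318 to 19660792 gene-assigned reads each. Values are TPM, a length-corrected abundance that sums to the same total in each library, so levels can be compared between genes. Values by library follow the order of replicates given above. Each difference is the ENT1KO level minus the WT level in log2(TPM + 1), which understates the change of low genes, and was tested with limma-trend over 13798 genes that reached 1 TPM in at least 3 libraries. Slc29a1 itself stood at 13.2 to 17.6 TPM in ENT1KO and at 49.7 to 58.9 TPM in WT. Markers of T cells and of other cells differed between the genotypes. The summed level of 14 CD8 T cell identity genes was 9219 to 11332 TPM in ENT1KO and 2891 to 6990 TPM in WT, and that of 15 macrophage and monocyte genes was 239 to 1596 TPM against 4064 to 6033 TPM. A list of 17 fibroblast and tumour cell genes, without Thy1, which T cells also express, was at 7.05 to 894 TPM against 4282 to 8132 TPM. All 14 identity genes, all 15 macrophage genes and all 16 tested fibroblast genes passed the test, the first higher and the others lower in ENT1KO. Of all tested genes 27.5% passed as higher and 23.1% as lower. In bulk RNA, a change in the share of a cell type and a change in transcript per cell cannot be told apart.

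In TPM, 7 of the 9 genes were called higher in ENT1KO (limma-trend adjusted p under 0.05), against 27.5% of all tested genes, and none was called lower, against 23.1%. S1pr1, Satb1, Ccr7, Foxo1, Klf3, Btg1 and Foxp1 rose, by 0.88 to 1.41 on the log2 scale. Klf2 and Tob1 did not pass the test. The median difference of the 9 genes was 0.95, against 0.15 for all tested genes. For 6 genes each ENT1KO library lay above each WT library, a separation in this direction shown by 30.3% of tested genes, and for none was the order the opposite, as it was for 24.9%. The CD8 T cell identity list itself had a median difference of 1.14, and its part in these rises was not tested beyond the scale relative to it given after the individual genes.

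**Figure D1:**
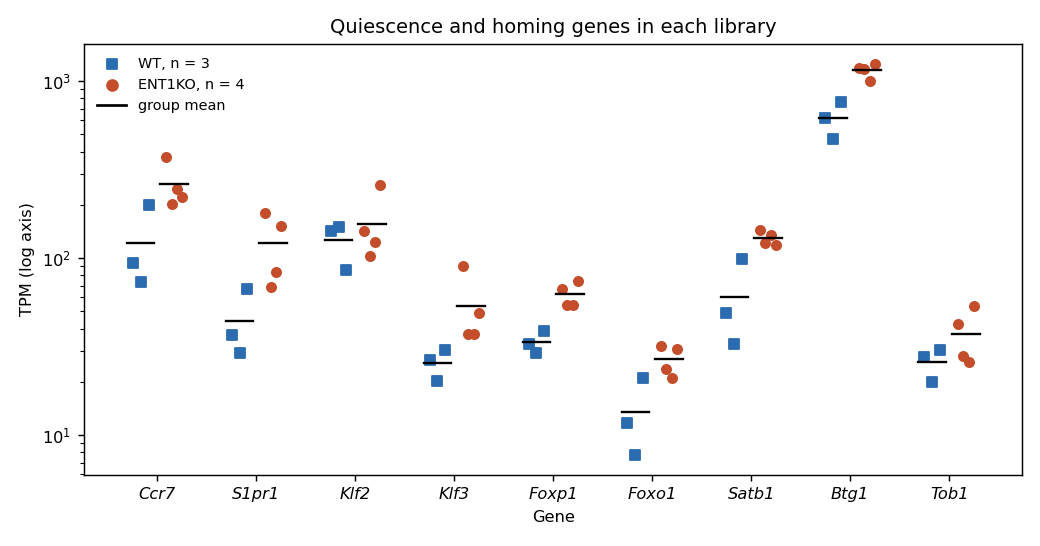
TPM of the 9 genes on a log axis, 1 point per library, with WT as squares (n = 3) and ENT1KO as circles (n = 4) and a black bar at each group mean. The groups do not overlap for Ccr7, S1pr1, Klf3, Foxp1, Satb1 and Btg1, and overlap for Foxo1, Klf2 and Tob1.

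Ccr7 and S1pr1, the receptors for entry into and exit from lymph nodes, were higher in every ENT1KO library than in any WT library. Ccr7 (chromosome 11, 99035022 to 99045903, GRCm39) was at 373, 203, 244 and 223 TPM in ENT1KO, against 94.0, 73.2 and 198 TPM in WT. ENT1KO replicate 11 was the highest and WT replicate 3 nearly reached the lowest ENT1KO library. Mean Ccr7 was 261 ± 76.6 TPM in ENT1KO (SD, n = 4) against 122 ± 67.1 TPM in WT (SD, n = 3, and likewise for all means that follow), and the log2 difference was 1.18 (SE 0.35, limma-trend adjusted p = 0.0235). S1pr1 (chromosome 3, 115504082 to 115508721) was at 180.4, 68.65, 83.3 and 152 TPM in ENT1KO, against 37.0, 29.1 and 66.8 TPM in WT. It was high in ENT1KO replicates 11 and 15, while replicate 12 stood just above WT replicate 3. Its means were 121 ± 53.8 and 44.3 ± 19.9 TPM, the widest ratio of the 9 genes at 2.74, and its log2 difference was 1.41 (SE 0.40, limma-trend adjusted p = 0.021). Without WT replicate 1 or without WT replicate 2 neither receptor passed, with limma adjusted p of 0.0731 and 0.0963 for Ccr7 and 0.0603 and 0.0998 for S1pr1. Ccr7 also lost its call without ENT1KO replicate 11 (limma adjusted p = 0.0554).

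Klf2, the transcription factor upstream of S1pr1, did not separate the genotypes. Klf2 (chromosome 8, 73072877 to 73075500) was at 142, 103, 123 and 259 TPM in ENT1KO, against 142, 150.2 and 86.0 TPM in WT. The highest library was ENT1KO replicate 15, the lowest was WT replicate 3, and the other 5 were mixed. The means were 157 ± 70.2 and 126 ± 34.8 TPM. The log2 difference was 0.26 with a 95% interval from -0.50 to 1.02 (limma-trend adjusted p = 0.527). The interval of S1pr1, from 0.48 to 2.33, overlaps it. Taken within each library, S1pr1 minus Klf2 differed by 1.15 between the genotypes (SE 0.58, exact two-sided permutation p = 0.171), and the groups overlapped. Without ENT1KO replicate 15 the Klf2 difference was -0.012. Among the 9 genes only Klf2 had a WT order opposite to that of T cell content. It was lowest in WT replicate 3, where the identity list summed to 6990 TPM and the macrophage list to 4064 TPM, and highest in WT replicate 2, where they summed to 2891 and 6033 TPM. ENT1KO did not repeat this pairing with the macrophage list. There Klf2 was highest in replicate 15, where that list had its lowest sum of any library, 239 TPM. In replicate 12, where Klf2 was lowest within ENT1KO, the macrophage list summed to 756 TPM. Klf2 is also expressed by endothelial cells and macrophages. The endothelial list of 10 genes summed to 30.7 to 44.7 TPM in ENT1KO and 46.8 to 63.05 TPM in WT. Most of the mean ENT1KO sum of 36.1 TPM was Pecam1, at 30.3 ± 7.39 against 18.9 ± 2.12 TPM. Pecam1 rose and the other 7 of 8 tested genes fell, against 27.5% and 23.1% of all tested genes. Among those 7, Cdh5 was at 0.74 ± 0.63 against 5.97 ± 1.78 TPM. The part of endothelial cells and macrophages in the Klf2 level was not tested.

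Klf3 (chromosome 5, 64960731 to 64990244), a repressor that binds the same CACCC-type sites as other KLF factors, was at 90.7, 37.4, 37.4 and 49.0 TPM in ENT1KO, against 26.5, 20.2 and 30.3 TPM in WT. Replicate 11 stood apart from the other ENT1KO libraries, and no library overlapped between the groups. Its means were 53.6 ± 25.3 and 25.7 ± 5.11 TPM and its log2 difference was 0.95 (SE 0.31, limma-trend adjusted p = 0.0337). Klf3 did not pass on the authors' normalized counts (limma adjusted p = 0.0772) or without ENT1KO replicate 15, WT replicate 1 or WT replicate 2 (limma adjusted p = 0.056, 0.0703 and 0.135).

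Foxo1 and Foxp1 are forkhead factors of the naive state, Foxp1 being needed to keep naive T cells quiescent. Foxp1 (chromosome 6, 98902299 to 99499682) was at 67.1, 54.6, 54.1 and 73.9 TPM in ENT1KO, against 32.6, 29.2 and 38.8 TPM in WT. Spread within each group was small and the groups lay well apart. The means were 62.4 ± 9.72 and 33.5 ± 4.86 TPM, with a log2 difference of 0.88 (SE 0.15, limma-trend adjusted p = 0.00291), the smallest p of the 9 genes. Foxo1 (chromosome 3, 52175757 to 52260642) was the least abundant of the 9, at 31.75, 23.6, 20.9 and 30.8 TPM in ENT1KO, against 11.8, 7.71 and 21.1 TPM in WT. WT replicate 3 exceeded ENT1KO replicate 14, so the groups overlapped by 1 library. The means were 26.8 ± 5.32 and 13.5 ± 6.88 TPM and the log2 difference was 1.02 (SE 0.30, limma-trend adjusted p = 0.024). Foxo1 lost its call without ENT1KO replicate 11 or 15 or WT replicate 1 or 2, with limma adjusted p from 0.0519 to 0.0723.

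Satb1 (chromosome 17, 52043215 to 52140318), a chromatin organiser of developing and naive T cells, was at 144, 122, 135 and 118 TPM in ENT1KO, against 49.1, 32.75 and 98.8 TPM in WT. The ENT1KO libraries lay within a narrow band and the WT libraries spread 3.02-fold. The means were 129.99 ± 11.9 and 60.2 ± 34.4 TPM, with a log2 difference of 1.24 (SE 0.32, limma-trend adjusted p = 0.0142). Leaving out any 1 library kept the call, with limma adjusted p up to 0.0457.

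Btg1 and Tob1 are antiproliferative adaptors of the BTG/TOB family, which bring the CCR4-NOT deadenylase to messenger RNA. Btg1 (chromosome 10, 96452868 to 96458671) was by far the most abundant of the 9 genes, at 1179, 1164, 1005 and 1256 TPM in ENT1KO, against 620.2, 469 and 767 TPM in WT. Its ENT1KO level exceeded that of 98.9% of tested genes. The means were 1151 ± 105 and 619 ± 149 TPM, and the log2 difference was 0.92 (SE 0.17, limma-trend adjusted p = 0.00376), with the groups apart. Tob1 (chromosome 11, 94102280 to 94106321) was at 42.55, 27.85, 25.9 and 53.3 TPM in ENT1KO, against 27.8, 19.9 and 30.3 TPM in WT. Replicates 11 and 15 were above all WT libraries and replicates 12 and 14 were within the WT range. The means were 37.4 ± 13.0 and 25.98 ± 5.44 TPM and the log2 difference was 0.47 with a 95% interval from -0.15 to 1.08 (limma-trend adjusted p = 0.172).

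The authors' deposited table called the same 7 genes higher, against 16.5% of its genes, with log2 fold changes from 0.69 for Btg1 to 1.31 for S1pr1 and adjusted p from 3.84e-05 for Foxp1 to 0.0219 for Klf3. In the authors' deposited table Klf2 was at 0.15 (adjusted p = 0.771) and Tob1 at 0.38 (adjusted p = 0.288). A count test on the reads recovered from the normalized counts (edgeR's quasi-likelihood test) called 4 of the 9, S1pr1, Foxp1, Satb1 and Btg1, against 18.5% of genes called higher. There Ccr7, Klf3 and Foxo1 had edgeR adjusted p of 0.0675, 0.071 and 0.0661. Foxp1, Satb1 and Btg1 passed in each single-library exclusion with limma, and they alone passed without WT replicate 1 or 2, where 23.8% and 16.8% of genes were called higher. Without ENT1KO replicate 11 or 15, 5 of the 9 passed, against 19.8% and 23.7% of genes. Without ENT1KO replicate 12 or 14 or WT replicate 3, 7 passed, against 21.4%, 24.1% and 27.2%.

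Other settings of the limma test changed the count of the 9 little. It stayed at 7 with a pseudocount of 0.1 or 5 (27.1% and 27.5% of genes called higher), a filter of 5 TPM (32.7%), quantile normalization (33%), array weights (29.1%) and protein-coding genes only (28.8%). It was 6 when every gene above 0 in any library was kept (11.6%) and on normalized counts (21%), Klf3 being the gene lost. With the macrophage list or the fibroblast list (here with Thy1) as a covariate it was 0, against 0.00725% and 0% of genes. Such a covariate and the genotype cannot be told apart in these libraries. After subtraction of the identity list none was called higher by limma, against 0.181%, and Klf2 alone was called lower (limma adjusted p = 0.0116). On that scale limma called 8919 of the 13798 tested genes, all but 25 of them lower.

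Each gene was next set against the T cell content of its own library by subtracting the mean log2(TPM + 1) of the 14 identity genes. That mean was 9.17 ± 0.10 in ENT1KO and 8.02 ± 0.65 in WT, a difference of 1.16 (exact two-sided permutation p = 0.0286, the smallest that 35 splits of 7 libraries allow). On this scale all 9 genes overlapped between the genotypes, as did 34.7% of tested genes, while 65% of tested genes were lower in ENT1KO without overlap and 0.304% higher. Relative to the list, Ccr7 differed by 0.02 (SE 0.27, exact permutation p = 0.943), S1pr1 by 0.25 (SE 0.41, exact permutation p = 0.571) and Satb1 by 0.08 (SE 0.15, exact permutation p = 0.571). These 3 differences were above 0, as were those of 3.86% of tested genes. Foxo1, Klf3, Btg1 and Foxp1 stood at -0.14, -0.21, -0.24 and -0.28, with exact permutation p from 0.2 to 0.571. The lowest were Tob1 at -0.69 (SE 0.33, exact permutation p = 0.114) and Klf2 at -0.90 (SE 0.62, exact permutation p = 0.229). The p-values on this scale are unadjusted over 9 genes, and missing the threshold does not show that the genotypes were alike per T cell. The spread of Klf2 relative to the list was widest in WT, from -2.22 in replicate 3 to -0.12 in replicate 2.

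**Figure D2:**
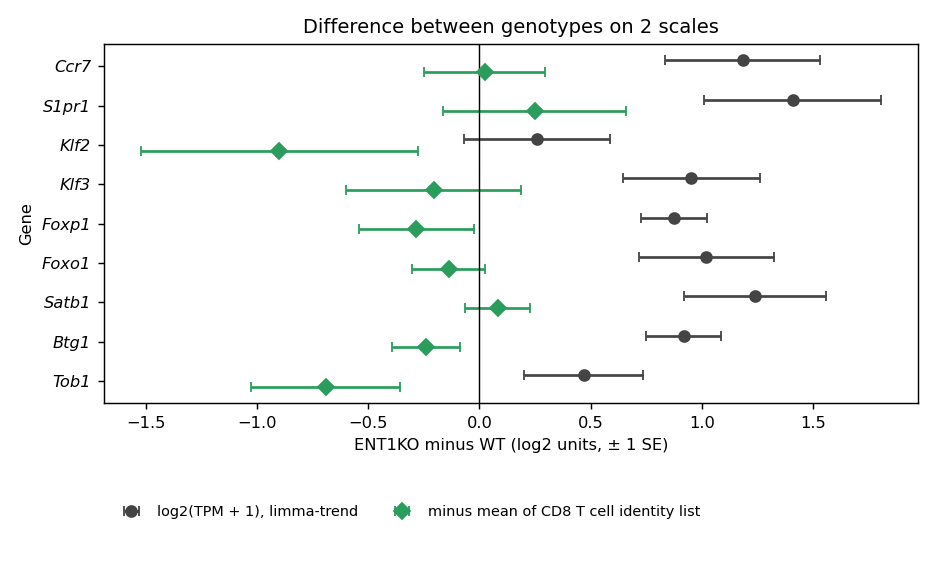
Difference between ENT1KO and WT for each gene in log2 units with ± 1 SE, on log2(TPM + 1) from limma-trend (circles) and after subtraction of the mean of the CD8 T cell identity list in each library (diamonds). The circles lie between 0.26 and 1.41, while the diamonds lie between -0.90 and 0.25.

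The order of the libraries differed between Klf2 and the other genes in WT. There, Ccr7, S1pr1, Klf3, Foxp1, Foxo1, Satb1, Btg1 and Tob1 were each lowest in replicate 2 and highest in replicate 3, the order of the identity list, whereas Klf2 had the reverse order. Within ENT1KO the genes did not follow the identity list, which was highest in replicate 12, where Ccr7, S1pr1 and Klf2 were at their lowest. Between pairs of the 8 genes Pearson's r of log2(TPM + 1) over the 7 libraries was 0.62 to 0.97 (28 pairs), and between Klf2 and each of them -0.08 to 0.55 (8 pairs). After each group's mean was removed, these ranges were 0.37 to 0.96 and -0.56 to 0.49. The points share libraries and T cell content, and the values describe these 7 libraries only. Relative to the mean of the other 8 genes, a comparison chosen after the values were seen, Klf2 was at 0.50 ± 0.47 in ENT1KO and 1.25 ± 0.91 in WT, a difference of -0.75 (exact permutation p = 0.229). The same measure gave -0.51 for Tob1 (exact permutation p = 0.0857) and 0.54 for S1pr1 (exact permutation p = 0.114), and the groups overlapped for all 9 genes.

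**Figure D3:**
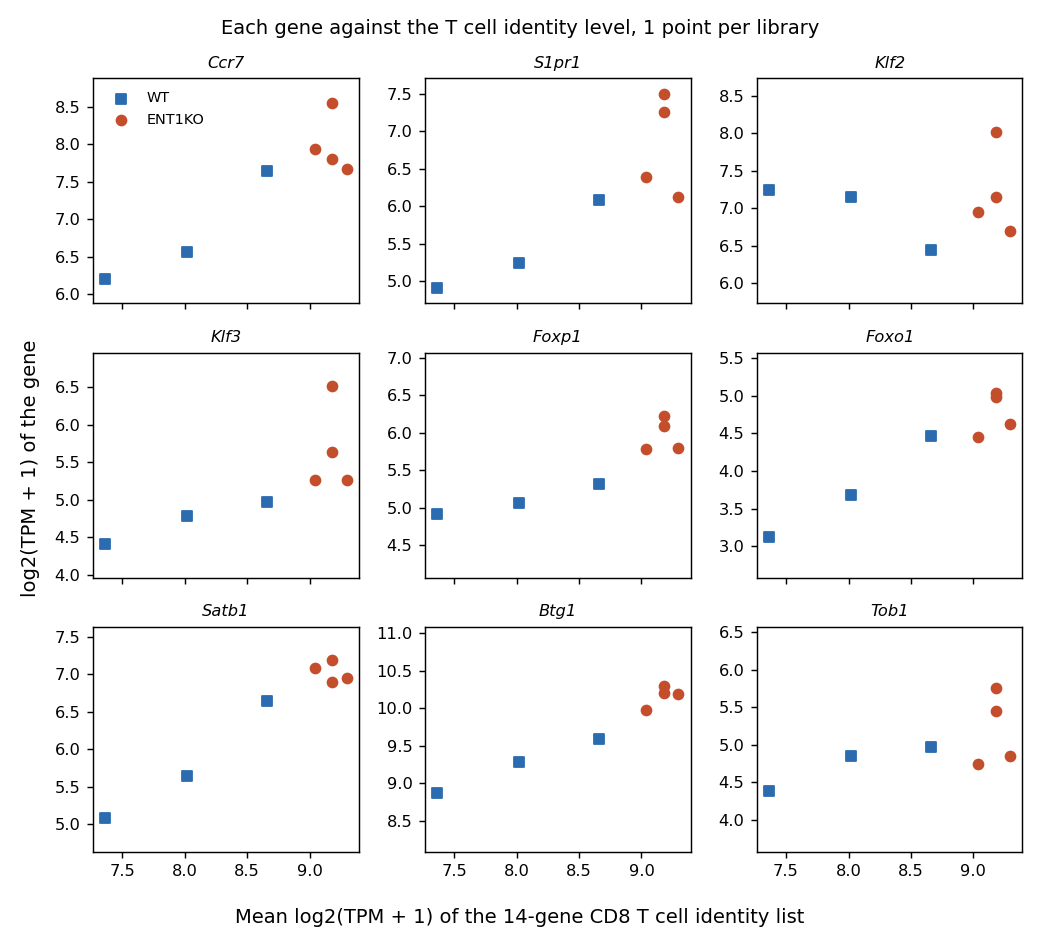
log2(TPM + 1) of each gene (vertical) against the mean log2(TPM + 1) of the 14-gene CD8 T cell identity list (horizontal), 1 point per library, WT as squares and ENT1KO as circles. In the WT libraries 8 genes rise with the identity level and Klf2 falls, with 150.2 TPM in the library lowest for identity genes and 86.0 TPM in the highest.

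The order of levels differed between the genotypes by 2 exchanges of neighbours, Ccr7 with Klf2 and Klf3 with Tob1. In ENT1KO it ran Btg1, Ccr7, Klf2, Satb1, S1pr1, Foxp1, Klf3, Tob1, Foxo1 and in WT Btg1, Klf2, Ccr7, Satb1, S1pr1, Foxp1, Tob1, Klf3, Foxo1. Only Btg1 lay apart from its neighbour in each group, and the ranges of all other neighbouring genes overlapped. Klf2 exceeded Ccr7 in 1 ENT1KO library, replicate 15, and in WT replicates 1 and 2. The genes most like the mean standardised profile of the 9, among 8048 protein-coding genes with a mean of at least 10 TPM, were Lef1, Frat2, Trp53bp2, Zhx1 and Smurf2, with Pearson's r from 0.991 to 0.997 over the 7 libraries. With group means removed, Zhx1, Lef1, Acot2, Trp53bp2 and Ndufs3 came first (r from 0.988 to 0.996).

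RefSeq promoter windows (build GRCm38.p6, another build than that of the gene positions above, 250 bases before to 50 after a start site) were at hand for 7 of the 9 genes, in 13 windows. They were searched on both strands for CCACCC, a core of KLF sites, and for TGTTTAC, a core of forkhead sites, whose matches did not overlap in these windows. CCACCC was in 8 of the 13 windows, against 31.5% of all 32851 promoter windows. These windows belong to 5 of the 7 genes, Klf2, Klf3, Foxp1, Satb1 and Tob1, against 34.0% of all genes with a window, and Foxp1 and Satb1 have several windows each. The Satb1 windows chr17:51812135-51812434 and chr17:51812005-51812304 overlap and share a CCACCC match, which is counted in both. TGTTTAC was in 1 window, that of Btg1, and in 3.65% of all. The shares over all windows were not matched for base composition, and the 13 windows held from 48.7% to 76.7% G and C. An excess of matches was not tested. Klf2, whose transcript did not follow the others, has 1 CCACCC match, whose first base lies 19 bases before the start site. Klf3 has 3, at 121, 111 and 49 bases before it, and the Btg1 match to TGTTTAC lies 204 bases before it. These 3 windows are shown because Klf2 and Klf3 are paralogs that differed in their call, and Btg1 holds the forkhead match. Each is printed 5′ to 3′ on the gene's strand with the matches, on either strand, in capitals. A match describes letters only.
Klf2, chr8:72318812-72319111, plus strand: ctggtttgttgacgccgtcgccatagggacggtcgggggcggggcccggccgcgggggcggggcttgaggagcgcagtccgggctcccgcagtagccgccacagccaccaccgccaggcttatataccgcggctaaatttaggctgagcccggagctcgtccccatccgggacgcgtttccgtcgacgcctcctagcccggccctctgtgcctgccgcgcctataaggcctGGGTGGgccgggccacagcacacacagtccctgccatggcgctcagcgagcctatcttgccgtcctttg
Klf3, chr5:64803271-64803570, plus strand: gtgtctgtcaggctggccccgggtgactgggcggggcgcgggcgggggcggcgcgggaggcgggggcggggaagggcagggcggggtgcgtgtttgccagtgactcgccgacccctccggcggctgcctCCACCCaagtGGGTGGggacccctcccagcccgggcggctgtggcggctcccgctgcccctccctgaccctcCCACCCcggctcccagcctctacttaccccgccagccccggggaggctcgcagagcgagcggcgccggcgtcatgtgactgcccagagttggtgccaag
Btg1, chr10:96616751-96617050, plus strand: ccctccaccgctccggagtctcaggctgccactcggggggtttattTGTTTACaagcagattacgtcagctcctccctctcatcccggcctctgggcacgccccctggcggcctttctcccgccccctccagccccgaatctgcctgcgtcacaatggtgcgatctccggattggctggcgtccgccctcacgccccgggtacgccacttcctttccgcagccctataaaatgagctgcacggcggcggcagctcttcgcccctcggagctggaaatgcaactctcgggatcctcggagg

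Of 12 other genes of the naive and memory state, 10 rose and 1 fell, with a median log2 difference of 1.32, beside 27.5% of all tested genes called higher and 23.1% lower. Il7r, the interleukin 7 receptor that FOXO1 activates, was at 168 ± 60.5 against 56.6 ± 17.04 TPM (log2 1.54, limma-trend adjusted p = 0.00475). Tcf7 and Lef1, the transcription factors of naive and stem-like cells, were at 229 ± 67.5 against 88.4 ± 35.2 TPM and at 64.6 ± 24.2 against 22.7 ± 9.31 TPM. Bach2, Ets1 and Itgb7 rose by 1.25, 1.01 and 1.41. Id3, which marks memory cells and is also expressed outside the T lineage, fell from 27.5 ± 7.85 to 6.91 ± 3.33 TPM (limma-trend adjusted p = 0.00332). Relative to the T cell identity list the median of these 12 genes was 0.16, and 1 gene, Id3, was lower without overlap, where 65% of all tested genes were.

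On the sphingosine 1-phosphate and CCR7 axis, 5 of 11 tested genes rose and 3 fell (median 0.29), against 27.5% and 23.1% of all tested genes. Cd69, whose product binds S1PR1 and removes it from the cell surface, was at 259, 357, 317 and 567 TPM in ENT1KO and 227, 103 and 166 TPM in WT, so it was higher in each ENT1KO library (log2 1.18, limma-trend adjusted p = 0.0178). Itgal, a chain of the integrin LFA-1, was at 382 ± 67.7 against 174 ± 64.0 TPM (limma-trend adjusted p = 0.00643). Sphk1, a kinase that makes sphingosine 1-phosphate, and Sgpl1, the lyase that degrades it, fell by 1.51 and 0.52. Gnai2, the G protein subunit through which CCR7 and S1PR1 signal, was at 404 ± 21.7 against 389 ± 48.5 TPM and did not pass (limma-trend adjusted p = 0.667). The ligand genes Ccl19, Ccl21a and Ccl21b did not reach the level for testing and were at most 0.23, 6.57 and 1.81 TPM in any library. Relative to the T cell identity list the median of the 11 tested genes was -0.87, with 6 lower without overlap and 3 above 0, against 65% and 3.86% of all tested genes. On that scale Cd69 and Itgal differed by 0.03 and 0.02.

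Among close relatives of the 9 genes, 3 of 15 tested rose and 3 fell (median 0.13), near the all-gene shares of 27.5% and 23.1% and the all-gene median of 0.15. Btg2, also antiproliferative, was at 445 ± 72.3 against 286 ± 40.7 TPM (log2 0.63, limma-trend adjusted p = 0.0113), less abundant than Btg1. Klf4 fell from 86.1 ± 34.8 to 34.7 ± 7.51 TPM and Klf10 from 32.6 ± 3.91 to 20.4 ± 3.44 TPM. Klf6, the most abundant KLF gene listed, was at 455 ± 125 against 326 ± 61.6 TPM and did not pass (limma-trend adjusted p = 0.109). Relative to the T cell identity list, all 15 were below 0 and 11 were lower without overlap, where 3.86% of all tested genes were above 0 and 65% lower without overlap, so this is near the background.

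Of 15 genes of the deadenylation machinery with which BTG and TOB proteins work, 7 rose and none fell (median 0.39), against 27.5% and 23.1% of all tested genes. Pan3 was at 80.9 ± 11.98 against 40.7 ± 9.79 TPM (log2 0.99, limma-trend adjusted p = 0.0038) and Cnot1, the scaffold of CCR4-NOT, at 111 ± 15.3 against 66.1 ± 8.06 TPM (log2 0.74, limma-trend adjusted p = 0.00376). Pabpc1, the poly(A)-binding protein, was at 1847 ± 123 against 1652 ± 135 TPM and did not pass (limma-trend adjusted p = 0.207). In a list of 16 genes that control FOXO1 or restrain growth, 9 rose and 3 fell (median 0.55), against the same all-gene shares of 27.5% and 23.1%. Sgk1 and Akt1, kinases that inactivate FOXO1, were among the 3 that fell, Sgk1 from 164 ± 54.0 to 67.4 ± 8.67 TPM (limma-trend adjusted p = 0.00353) and Akt1 from 140 ± 3.29 to 108 ± 7.78 TPM (limma-trend adjusted p = 0.0127). Slfn2, a quiescence factor of T cells, and Rbl2, a pocket protein that holds cells out of cycle, rose by 1.01 and 0.88. Relative to the T cell identity list, the medians of the deadenylation and growth lists were -0.77 and -0.61, against -1.01 for all tested genes and -0.21 for the 9 quiescence and homing genes.

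**Figure D4:**
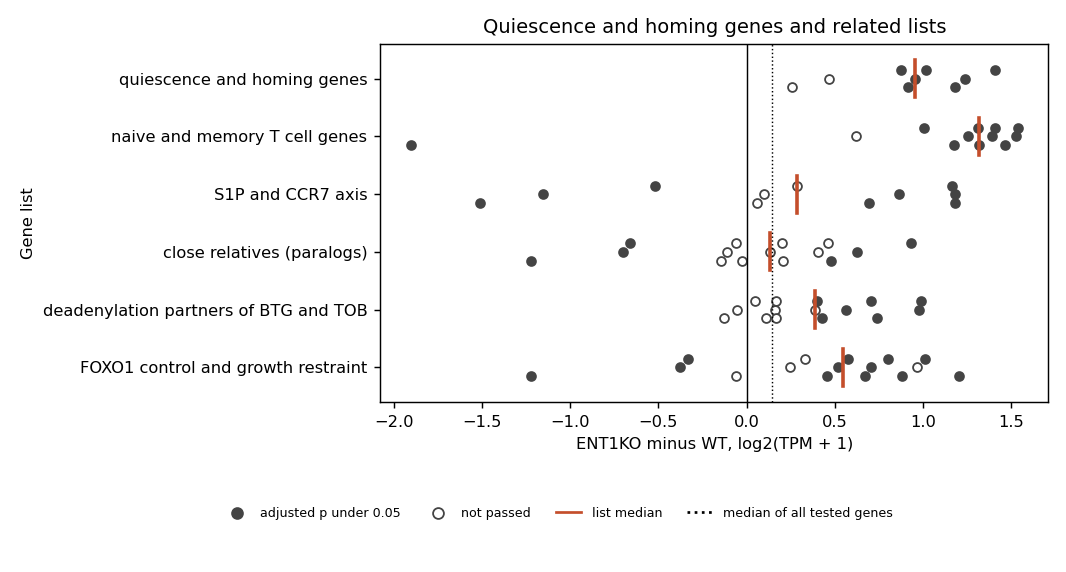
Difference between ENT1KO and WT on log2(TPM + 1) for the 9 genes and the tested genes of 5 related lists, 1 point per gene, filled where the limma-trend adjusted p is under 0.05, with the list median in colour and the median of all tested genes dotted. The naive and memory list (median 1.32) and the 9 genes (0.95) lie to the right of the median of all tested genes (0.15), and the paralogs (0.13) straddle it.

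Markers of other cells that express these genes moved in both directions. B cells carry Ccr7, Klf2, S1pr1, Foxp1 and Btg1. The 10-gene B cell list summed to 96.4 to 179 TPM in ENT1KO and 75.3 to 116 TPM in WT, most of it Ighm, and 4 of its genes reached the level for testing. Of these, Ighm (135 ± 34.4 against 74.7 ± 21.96 TPM, limma-trend adjusted p = 0.0296) and Cd79b (5.87 ± 0.89 against 2.83 ± 0.75 TPM, limma-trend adjusted p = 0.0091) rose, Blnk fell and Ighd did not pass. That is 2 of 4 higher and 1 of 4 lower, against 27.5% and 23.1% of all tested genes. Ms4a1 and Pax5, below that level, were at most 0.69 and 1.18 TPM in any library. Cd4, of helper T cells, was at 0.80 to 1.95 TPM in ENT1KO and 1.79 to 3.22 TPM in WT. The 8-gene CD4 and regulatory T cell list that holds it summed to 487 to 795 TPM in ENT1KO and 188 to 326 TPM in WT. In that list 3 genes rose (Ctla4, Il2ra and Cd40lg) and 2 fell (Cd4 and Foxp3), against 27.5% and 23.1% of all tested genes. Ctla4 made up most of the list's sum, at 471 ± 109 against 180 ± 56.0 TPM, where the mean sums were 613 and 279 TPM. Relative to the T cell identity list Ctla4 differed by 0.25, and the median of the 8 genes was -0.53.

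Natural killer cells express S1pr1 and Klf2. The 8-gene NK cell list summed to 1522 to 2314 TPM in ENT1KO and 992 to 1384 TPM in WT, higher in each ENT1KO library. Klrk1, Klrc1 and Eomes, which CD8 T cells also express, rose by 1.27, 1.04 and 1.29. Tyrobp, Fcer1g and Klra8 fell, and Ncr1 and Klrb1c did not pass (log2 differences of -0.56 and 0.53). That is 3 of 8 higher and 3 of 8 lower, against 27.5% and 23.1% of all tested genes. Mature dendritic cells also carry Ccr7. The 14-gene dendritic cell list summed to 354 to 1154 TPM in ENT1KO and 1994 to 3116 TPM in WT. Of its 13 tested genes 6 fell and none rose, against 23.1% and 27.5% of all tested genes. Most of the WT sum was Cd74, H2-Eb1, H2-Aa and H2-Ab1, at means of 954, 478, 460 and 372 TPM, all among the 6. The other 7, Flt3, Zbtb46, Clec9a, Itgax, Cd209a, Siglech and Clec10a, did not pass. Ccl22 and Fscn1, taken here as markers of mature dendritic cells, were at 1.95 ± 0.56 against 5.68 ± 2.40 TPM and 8.64 ± 6.69 against 97.6 ± 32.2 TPM. Which cells supplied the Fscn1, Cd74 and H2 transcripts was not tested, so their fall is not a measure of dendritic cell number. The part of B, natural killer and dendritic cells in the levels of the 9 genes was not tested.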

How the data were processed

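RNA-seq of sorted CD8 T cells was analysed in 7 libraries (4 ENT1KO, 3 WT), grouped by sample title, made from 75 ng RNA. The authors deposited TPM per gene, in a table whose name says stranded. They also deposited a comparison table with a signal per sample, read counts divided by 1 size factor, and log2 fold changes, a test score and p-values as the authors computed them. Per the submitters' processing notes, the tools were STAR 2.7.1a, Trimmomatic (0.35, 0.38), DESeq2 1.30.1, DESeq and RSEM, and the build GRCm39, with no roles given and no annotation release in the sources used here.

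Differences were tested with limma 3.58.1 (limma-trend, robust) in R 4.3.3 on log2(TPM + 1), with a model of genotype alone, and p-values were adjusted over 13798 genes by Benjamini-Hochberg. Single values were tested by exact two-sided permutation. All signal values were whole multiples of the column's smallest value (100% within a tolerance of 0.01). The unit check accepted this for 5 of the 7 columns, the step being near 1 in WT replicates 1 and 3. The recovered reads were tested with edgeR 4.0.16 as an added alternative, which called 6436 genes. Counting intervals were not computed. Scripts were tested on simulated data. Motif matches were counted in RefSeq windows of 300 bases.

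The 9 genes, the lists and the tests were chosen with earlier results of these data known. All 9 genes are named. Of each related list, the 2 genes with the smallest p and the 2 with the highest mean TPM are named, with Il7r, Tcf7, Lef1 and Cd69, and genes of likest profile by Pearson's r. Some genes of the lists are counted but not reported here by name. Marker genes, the 3 ligand genes and other library values were named after their values were seen. The alternatives were other pseudocounts, filters, scalings, covariates, array weights, a restriction to protein-coding genes, and omission of each library.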

Additional observations from a re-analysis of the deposited data

Results flagged for a closer look

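The summed level of the 8-gene NK cell list was 2314 TPM in ENT1KO replicate 12, far from the other 3 ENT1KO libraries at 1624, 1536 and 1522 TPM. It was the 1 sample standing apart by Dixon's criterion for groups of 4 among 37 ENT1KO groups of values checked, and chance flags about 1 in 20. Most of this sum is Klrk1 and Klrc1, which CD8 T cells share (779 ± 216 and 770 ± 164 TPM in ENT1KO). None of the 9 quiescence and homing genes was flagged on TPM, relative to the T cell identity list or relative to the other 8 genes. The widest gap was that of Klf3 relative to the other 8 genes in replicate 11, at 0.814 of the group's range, just under the critical 0.829. On TPM the widest were Klf3 and Ccr7 in replicate 11 and Klf2 in replicate 15, at 0.782, 0.757 and 0.75.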

How the results depend on the processing

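No paired analysis was possible because the genotypes share no replicate number. Leaving out each library gave 4840 to 6853 called genes, 3 to 7 of the 9 genes, 32 to 42 genes of the related lists (44 with all libraries), and a median of the 9 genes relative to the T cell identity list from -0.39 to -0.05. Pseudocounts, filters, quantile normalization, array weights, protein-coding genes and normalized counts left 6 or 7 of the 9 called, the gene lost being Klf3 (limma adjusted p = 0.0638 with every gene above 0 in any library kept and 0.0772 on normalized counts). edgeR called 4. Relative to the identity list limma called 8919 of the 13798 tested genes, all but 25 of them lower. It called 1 of the 9, Klf2, lower (limma adjusted p = 0.0116). The SE of Klf2 there was 0.33 from limma and 0.62 from its own libraries, and its exact permutation p was 0.229. On that scale the differences were -0.90 for Klf2, -0.21 for Klf3, -0.28 for Foxp1, -0.14 for Foxo1, -0.24 for Btg1 and -0.69 for Tob1, opposite to TPM. This follows from the subtraction of a list that was itself 1.16 higher.

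With the macrophage list as a covariate 3 genes in all, 0 of the 9 and 0 of the related lists were called, and Klf2 and Tob1 turned to -0.76 and -0.73. With the fibroblast and tumour list (Thy1 included) the counts were 0, 0 and 0, and Ccr7, S1pr1, Klf3, Foxp1, Foxo1, Satb1, Btg1 and Tob1 turned to -1.04, -1.74, -1.37, -0.15, -1.297, -0.41, -0.18 and -1.497. In ENT1KO, Thy1, which T cells also express, supplied 1368 of the mean 1656 TPM of that list. Both lists separate the genotypes without overlap, so covariate and genotype cannot be told apart.

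Uncalled values near 0 changed sign. The Klf2 difference was -0.012 without ENT1KO replicate 15, in a range up to 0.43. Ccr7 relative to the identity list was -0.16, -0.0031 and -0.097 without ENT1KO replicates 11 and 14 and WT replicate 1, in a range up to 0.17. Relative to the other 8 genes, Klf3 was -0.025 on normalized counts and, leaving out libraries, ran from -0.17 (ENT1KO replicate 11) through -0.053 (WT replicate 3) to 0.13. On that measure Foxp1 was 0.019 and 0.051 without ENT1KO replicate 11 and WT replicate 2 (lowest -0.16). Btg1 was 0.096, 0.029 and 0.025 without ENT1KO replicates 11 and 15 and WT replicate 1 (lowest -0.13). Foxo1 was -0.039 without WT replicate 2 (highest 0.28). For exact tests, leaving out a library cannot give p under 0.0667, so no such value can pass 0.05. The median of all genes was 0.15 on TPM, 0.00 on normalized counts and 0.17 after quantile normalization. Group sizes of 4 and 3 limit the precision of all these values.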

Other observations

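Within ENT1KO the libraries did not share 1 level of these genes. Replicates 11 and 15 held the 2 highest values among the 4 for S1pr1, Klf2, Klf3, Foxp1, Foxo1, Btg1 and Tob1, and replicates 12 and 14 the 2 lowest. Ccr7 and Satb1 kept replicate 11 highest, with replicate 14 second. The mean standardised profile of the 9 genes was 1.02 in replicates 11 and 15 and 0.12 and 0.17 in replicates 12 and 14. In replicates 11, 15, 12 and 14 the identity list summed to 9952, 10056, 11332 and 9219 TPM. The macrophage list summed to 616, 239, 756 and 1596 TPM there. The fibroblast and tumour cell list without Thy1 summed to 69.7, 7.05, 184 and 894 TPM. Both of these lists were thus lower in replicates 11 and 15 than in replicates 12 and 14. Other lists did not show this. In the same order the dendritic cell list summed to 665, 354, 610 and 1154 TPM. A 6-gene neutrophil list summed to 3.62, 13.25, 2.7 and 8.75 TPM. The endothelial list was higher in replicates 11 and 15, at 44.7, 35.2, 30.7 and 33.8 TPM. Cd8a was at 1043, 858, 1304 and 984 TPM in the same order. Cd69 did not follow this split, at 259, 567, 357 and 317 TPM. Lef1, at 91.3, 78.9, 44.7 and 43.5 TPM, did. These values are a description of 4 libraries and were not tested.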
